A study of Homo sapiens with 9 samples.

Results

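The cadherin superfamily holds the calcium-dependent adhesion proteins by which animal cells recognise and hold each other. Its genes were followed here in newly made RNA and in total RNA of human cranial neural crest cells (CNCCs) before and after acute loss of the transcription factor SOX9. Members were all genes whose symbol is CDH with a number or begins with PCDH, together with CELSR1 to CELSR3, FAT1 to FAT4 and DCHS1 and DCHS2. This rule found 94 of the 18970 genes in the tables. A single gene is given values only where its newly made reads reached 1 CPM (reads scaled by the library total) in at least 3 samples, which 39 of the 94 did. FAT3, PCDHA11, PCDHGA8 and PCDHGB4 were not analysed here.

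The cells were made from the human embryonic stem cell line H9, which is long established, and carried on both SOX9 alleles a carboxy-terminal FKBP12-F36V–mNeonGreen–V5 tag. dTAGV-1, a small molecule that brings the tagged protein to a ubiquitin ligase, removes it. All samples shared the tag, the differentiation to passage 4 CNCCs, a medium with BMP2 and CHIR-99021, and 4-thiouridine (4sU) at 100 uM for the last 2 h. The 3 groups were 0h (relative SOX9 level 100% in the labels, with DMSO named as the vehicle in the treatment protocol), 3h and 24h of 500 nM dTAGV-1 (level 0% in the labels). The 4sU was added 1 h into treatment for 3h samples and 22 h into treatment for 24h samples. The samples held a single 0h group and no untagged cells. Effects of the compound or of time in culture therefore cannot be told apart from those of SOX9 loss. Each group held the same 3 cultures, S9CC13_R6, S9CC47_R5 and S9CC47_R6, which come from 2 clones (S9CC13 and S9CC47) and 2 differentiation batches (R5 and R6). Values below are given for the cultures in that order. Each combination of clone and batch was 1 culture, so differences between clones or batches cannot be told apart from differences between cultures.

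In SLAM-seq, 4sU built into RNA made during labelling is alkylated and read as a T>C conversion, so T>C reads stand for newly made RNA and total reads for all polyadenylated RNA. Both tables count the same 3′ end libraries, and T>C reads are part of the total reads, so the readouts are not independent.

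Classical cadherins bind the same cadherin on the next cell and link through catenins to actin. Neural crest cells are known for switching among cadherins as they leave the neural epithelium and migrate. Protocadherins lack the catenin-binding tail: the non-clustered delta protocadherins act in cell sorting and signalling, while the clustered alpha, beta and gamma genes lie in tandem on chromosome 5 and give cells, above all neurons, a recognition code. The CELSR proteins and the giant FAT and DCHS cadherins act in planar cell polarity.

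Libraries held 16955633 to 28782678 total reads and 3130673 to 5475800 T>C reads per sample, which was 15.9% to 21.3% of reads. The 94 genes took 0.0687% to 0.0983% of total reads. SOX9 transcript was present at all times, with normalized T>C counts of 9493 to 9961 in the 0h group, 15047 to 18399 in the 3h group and 19883 to 23542 in the 24h group, and since the protein is what dTAGV-1 removes, these values do not check the depletion. Of 7 markers of cranial neural crest mesenchyme, 7 were detected, and their summed level was 2187 to 2360 CPM at 0h, 2506 to 2766 CPM at 3h and 3165 to 3442 CPM at 24h. Among 6 markers of pluripotent stem cells, POU5F1, NANOG and TDGF1 were at or near 0 while LIN28A and L1TD1 were at 241 CPM and 416 CPM or more in all samples, and the summed level was 811 to 887 CPM at 0h, 741 to 810 CPM at 3h and 741 to 819 CPM at 24h. Markers of neural progenitors, epithelium and endothelium were under 1 CPM in all 9 samples for 4 of 5, 4 of 6 and 3 of 4 genes. In these bulk samples, fewer cells of a type and less RNA per cell cannot be told apart.

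Newly made reads passed the filter for 3 of 5 type I cadherins (CDH2, CDH3 and CDH15), 6 of 13 type II cadherins (CDH6, CDH7, CDH10, CDH11, CDH20 and CDH24), 3 of 5 delta1 protocadherins (PCDH1, PCDH7 and PCDH9), 4 of 5 delta2 protocadherins (PCDH10, PCDH17, PCDH18 and PCDH19), 3 of 3 CELSR genes and 3 of 5 FAT and DCHS genes (FAT1, FAT4 and DCHS1). Of the clustered genes, 4 of 14 alpha, 6 of 16 beta and 6 of 20 gamma symbols passed, but reads from the 3′ end do not show which alpha or gamma gene was used, as described below for the clusters. Among the 3 remaining protocadherins PCDH20 passed, and of 5 atypical cadherins (CDH13, CDH16, CDH17, CDH23 and CDH26) none did. The genes under the filter included CDH1, the E-cadherin of epithelia, and CDH5, the cadherin of endothelium. CDH4, CDH8, CDH9, CDH12, CDH18, CDH19, CDH22, PCDH8, PCDH11X, PCDH11Y, PCDH12, PCDH15, FAT2 and DCHS2 were also under it.

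Total reads at 0h ranked these genes as follows, with each transcript giving about 1 read near its 3′ end whatever its length. PCDHGA10 stood at 152 ± 36.4 CPM (SD, n = 3) and DCHS1 at 126 ± 23.1 CPM, and their ranges overlapped. CDH2 (N-cadherin) followed at 85.6 ± 16.9 CPM, CDH11 at 67.6 ± 6.75 CPM, PCDHA10 at 66.2 ± 8.82 CPM and PCDH18 at 60.96 ± 10.2 CPM, with each range overlapping the next. All 3 DCHS1 values lay above all 3 CDH2 values. PCDH9 (43.1 ± 2.80 CPM) and FAT1 (35.5 ± 6.27 CPM) overlapped each other and lay below PCDH18. PCDHGB6 (16.1 ± 3.17 CPM) and PCDH7 (14.8 ± 2.23 CPM) came next, and CDH3 (11.4 ± 0.825 CPM), PCDHB2 (11.2 ± 3.30 CPM) and PCDH1 (10.96 ± 2.26 CPM) had overlapping ranges. Of the genes tested in newly made RNA, CDH20 had the lowest total level, 0.276 ± 0.259 CPM.

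**Figure D1:**
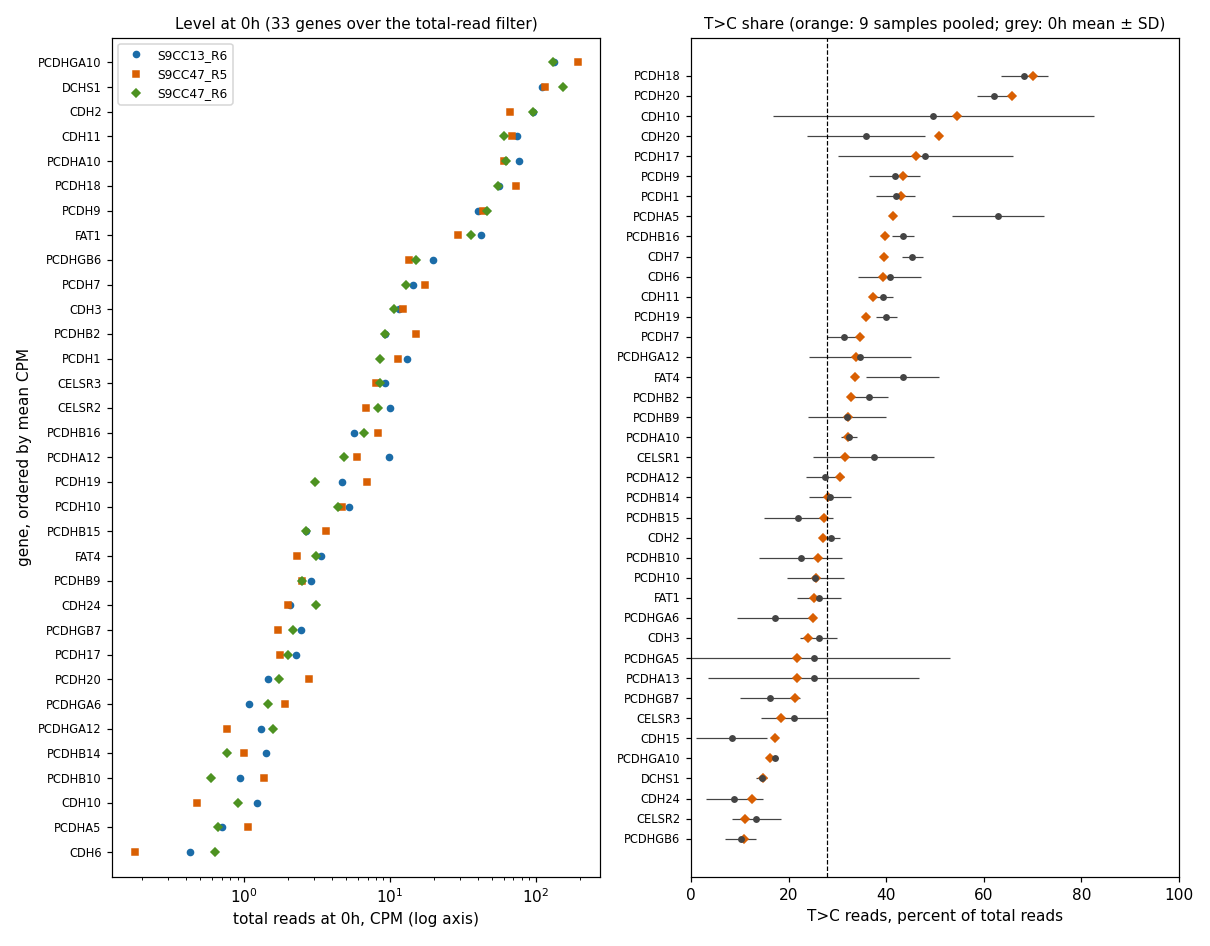
Left, total reads at 0h in CPM on a log axis for the 33 genes that passed the filter in both tables, 1 point per culture. Right, T>C reads as a percent of total reads for 39 genes, with orange diamonds for the 9 samples pooled, grey points with bars for the 0h mean ± SD (n = 3) and a dashed line at 27.8%, the median over 12037 genes. PCDHGA10 and DCHS1 head the left panel, and PCDH18 and PCDH20 stand apart at the top of the right panel at 70.0% and 65.9%.

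The share of a gene's reads that carried a T>C conversion also differed widely among the members. Its median was 31.5% over 39 genes, beside 27.8% over all 12037 genes tested. PCDH18 had the highest share, 70.05%, which was above 98.8% of all tested genes, and PCDH20 had 65.9%, above 97.6%. CDH10 (54.5%) and CDH20 (50.7%) came next. The other delta protocadherins were spread, with PCDH17, PCDH9 and PCDH1 at 46.03%, 43.4% and 42.96%, PCDH19 and PCDH7 at 35.9% and 34.6%, and PCDH10 below the median at 25.6%. At the low end were PCDHGB6 (10.8%), CELSR2 (11.04%), CDH24 (12.5%), DCHS1 (14.8%) and PCDHGA10 (16.3%). CDH11 (37.3%) lay above CDH2 (27.02%). The share depends on how fast RNA is made and lost and also on how many T bases the sequenced stretch holds, and these cannot be told apart here.

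At 3h of depletion, newly made RNA of a single member differed from 0h. PCDH1, a delta1 protocadherin, fell, which made 1 of 39 members tested (DESeq2, adjusted p under 0.1), beside 1.79% of all 12037 genes tested that were called in either direction. CDH11, FAT4 and PCDH10 were under an unadjusted p of 0.05 without passing. The share of all genes under that p was not counted, so these do not count as changed. At 24h, 3 of 39 members had changed, beside 4.98% of all genes: PCDH18 and PCDH7 rose, beside 2.38% of all genes higher, and PCDH1 fell, beside 2.59% lower. Between 3h and 24h, PCDH18 alone changed and rose, 1 of 39 beside 1.14% of all genes changed in either direction. The median log2 fold change of the 39 members was -0.047 at 3h and 0.22 at 24h, beside -0.011 and 0.0015 over all genes tested, and 27 of 39 were fitted higher at 24h. These medians are a description, since a gene could pass the filter through its 24h samples alone.

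In total reads, 34 members were tested, 33 of the same genes and CDH23. Of these, 2 changed at 3h, PCDH1 and PCDH10, which both fell, beside 1.89% of 11710 genes changed in either direction. At 24h, 9 of 34 had changed, beside 15.0% of all genes. The 6 that rose, beside 7.11% of all genes, were CDH6, PCDH7, PCDH18, PCDHB2, PCDHB9 and PCDHGA10, and the 3 that fell, beside 7.85%, were CDH3, PCDH1 and PCDH10. CDH6 reached 1 CPM of total reads in depleted samples alone, so its place among the 6 depends on the filter. Between 3h and 24h, 4 of 34 changed, beside 5.39%: PCDH18, PCDHB2 and PCDHGA10 rose and CDH3 fell. The comparisons with 0h share the 0h samples. Leaving out 1 of the 3 cultures removed calls over all genes, which at 24h went from 599 to between 67 and 259 in T>C reads, and in total reads from 1751 to 163 without S9CC13_R6 and 788 without S9CC47_R5. Without S9CC13_R6 none of the member calls in T>C reads remained, and CDH3 alone remained of those in total reads at 24h. Such a fit has 6 samples for the terms for time, batch and a newly estimated surrogate variable, so little spread is left to estimate from. Without S9CC47_R5 a single batch remains and the batch term drops out, so these fits are not alike. A call lost there does not show that a gene changed in S9CC13_R6 alone. The fitted change without S9CC13_R6 is given with each gene below.

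**Figure D2:**
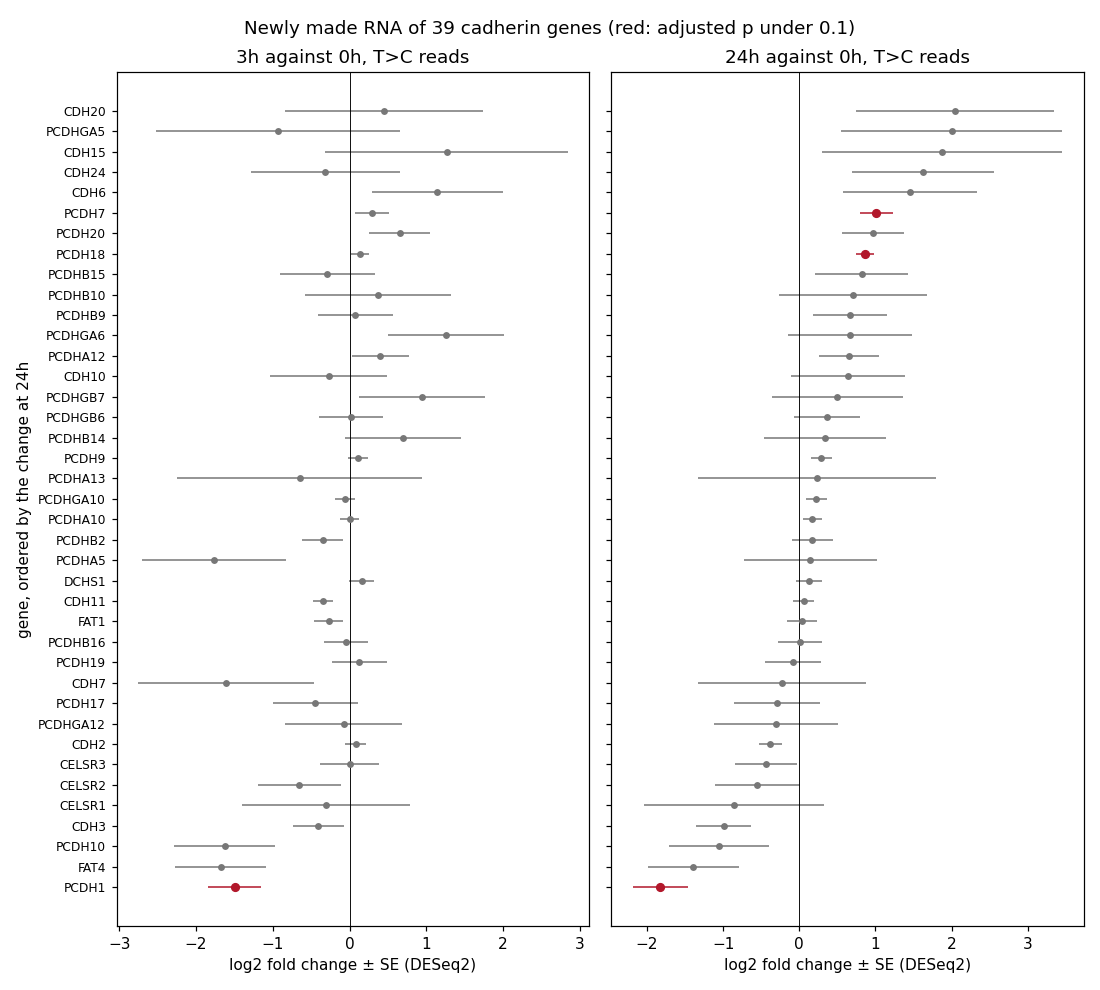
Log2 fold change ± SE (DESeq2) of newly made RNA for 39 genes, 3h against 0h on the left and 24h against 0h on the right, ordered by the change at 24h, with red points for an adjusted p under 0.1. PCDH1 is red in both panels at -1.50 and -1.83, and PCDH18 and PCDH7 are red at 24h only at 0.86 and 1.01, while the genes with the widest bars are those with few reads.

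PCDH1 fell at both times and in both readouts. The gene lies at chr5:141853090-141879246 on the minus strand (hg38, GENCODE 44) and encodes a delta1 protocadherin, best known from airway epithelium. Its normalized T>C reads were 127, 87.1 and 83.03 at 0h, 48.95, 45.9 and 29.2 at 3h and 21.8, 41.5 and 9.63 at 24h. Every sample at 3h and 24h lay below every 0h sample. The log2 fold change of T>C reads was -1.50 ± 0.34 (SE, adjusted p = 0.00162) at 3h and -1.83 ± 0.36 (adjusted p = 5.06e-05) at 24h. Total reads went from 279.6, 248 and 189.8 at 0h to 94.2, 103 and 77.7 at 3h and 29.9, 87.2 and 41.9 at 24h, a log2 fold change of -1.45 ± 0.26 (adjusted p = 2.89e-06) and -2.14 ± 0.28 (adjusted p = 1.13e-12). S9CC47_R5 kept the highest level at 24h in both readouts. From 3h to 24h the fold change was -0.33 ± 0.42 in T>C reads (adjusted p = 0.945) and -0.69 ± 0.31 in total reads (adjusted p = 0.239), and neither passed, although the total reads did without the surrogate variable and with the replicate block (-0.86 to -0.85, adjusted p = 0.0523 to 0.0793). The 3h change in T>C reads was -1.16 without S9CC13_R6 (adjusted p = 1), -1.53 without S9CC47_R5 (adjusted p = 0.154) and -1.16 without S9CC47_R6 (adjusted p = 1). The 24h change was -1.53 (adjusted p = 1) and -1.84 (adjusted p = 0.148) without S9CC13_R6 and without S9CC47_R6. In total reads, leaving out S9CC13_R6 gave -1.23 at 3h (adjusted p = 0.251) and -1.55 at 24h (adjusted p = 0.441).

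PCDH10 (OL-protocadherin, chr4:133149294-133208606, plus strand) is a delta2 protocadherin with a role in axon growth. It fell in total reads at 3h and stayed low. Its normalized total reads were 113, 101 and 97.6 at 0h, 44.3, 35.8 and 37.7 at 3h and 27.05, 35.8 and 47.7 at 24h, with no overlap of either time with 0h. The log2 fold change of total reads was -1.38 ± 0.31 at 3h (adjusted p = 0.000861) and -1.54 ± 0.33 at 24h (adjusted p = 9.45e-05). T>C reads were few, 29.2, 30.2 and 19.04 at 0h, 14.6, 12.1 and 2.33 at 3h and 8.53, 7.27 and 14.8 at 24h, and their fold changes of -1.63 ± 0.65 and -1.06 ± 0.66 did not pass (adjusted p = 0.377 and 0.525). The 3h change in total reads was -1.47 without S9CC13_R6 (adjusted p = 0.763) and -1.35 without S9CC47_R5 (adjusted p = 0.166), and the 24h change was -1.50 without S9CC13_R6 (adjusted p = 1).

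PCDH18 (chr4:137518918-137532494, minus strand), a delta2 protocadherin, had the highest total level at 0h of the non-clustered protocadherins and rose at 24h. Its normalized T>C reads were 789, 1096 and 811 at 0h and 796, 877 and 1137 at 3h, which overlapped, and 1829, 1502 and 2138 at 24h, above all earlier samples. The log2 fold change of T>C reads was 0.14 ± 0.12 at 3h (adjusted p = 0.951), 0.86 ± 0.12 at 24h (adjusted p = 2.17e-10) and 0.72 ± 0.13 from 3h to 24h (adjusted p = 1.5e-05). Within cultures, the log2 ratio of 24h to 0h was 1.21, 0.45 and 1.40, lowest in S9CC47_R5, which had the highest 0h level. Total reads moved alike, from 1196, 1583 and 1219 at 0h and 1229, 1245 and 1663 at 3h to 2664, 2172 and 3138 at 24h, with a fold change of 0.85 ± 0.11 at 24h (adjusted p = 5e-12) and 0.73 ± 0.12 from 3h (adjusted p = 1.55e-07). Without S9CC13_R6 the change at 24h was 0.59 in T>C reads (adjusted p = 0.1) and 0.29 in total reads (adjusted p = 1). From 3h to 24h it was then 0.53 (adjusted p = 0.421) and 0.33 (adjusted p = 1). Within S9CC47_R5 and S9CC47_R6, the cultures kept, the log2 ratio of 24h to 0h in total reads was 0.46 and 1.36. The summed crest mesenchyme markers given above were higher at 24h as well, mostly through MSX1 (mean 625 CPM at 0h and 1457 CPM at 24h) and TFAP2A (236 and 398 CPM), while NR2F1 had 1064 and 1056 CPM, and their part in this result was not tested.

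PCDH7 (NF-protocadherin, chr4:30720369-31146805, plus strand) is a delta1 protocadherin whose tail, like that of the other delta1 members, can bind the phosphatase PP1alpha. Its normalized T>C reads were 113, 106 and 80.7 at 0h, 122, 145 and 114 at 3h and 166, 272 and 146 at 24h. The 24h samples lay above all samples of 3h and 0h, with S9CC47_R5 highest. DESeq2 gave a log2 fold change of 0.29 ± 0.22 at 3h (adjusted p = 0.93) and 1.01 ± 0.22 at 24h (adjusted p = 0.00038). From 3h to 24h it was 0.72 ± 0.24 and did not pass (adjusted p = 0.165). Total reads were 309.9, 375 and 286 at 0h, 454, 418 and 351 at 3h and 437, 675 and 412 at 24h, with a fold change of 0.72 ± 0.15 at 24h (adjusted p = 3.8e-05). With any 1 culture left out, the 24h change in T>C reads did not pass: it was 1.20 without S9CC13_R6 (adjusted p = 0.494), 0.80 without S9CC47_R5 (adjusted p = 0.442) and 0.94 without S9CC47_R6 (adjusted p = 0.732). In total reads it was 0.79 without S9CC13_R6 (adjusted p = 0.675).

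The 3 members with changed newly made RNA are shown by the 250 bases before their RefSeq start (GRCh38.p14, read 5′ to 3′ on the gene strand), so that the letters of their promoters can be read beside these values. Capitals mark ACAATG or ACAAAG on either strand, letters of the core that SOX proteins bind, which share their start ACAA. The PCDH1 start used by RefSeq lies inside the gene as GENCODE draws it, at an inner first exon.
PCDH1, chr5:141869628-141869877: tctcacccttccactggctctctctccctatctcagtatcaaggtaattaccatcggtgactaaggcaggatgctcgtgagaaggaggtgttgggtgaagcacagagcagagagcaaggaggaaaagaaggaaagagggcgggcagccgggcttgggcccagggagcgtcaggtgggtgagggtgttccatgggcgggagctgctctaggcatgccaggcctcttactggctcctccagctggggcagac
PCDH18, chr4:137532495-137532744: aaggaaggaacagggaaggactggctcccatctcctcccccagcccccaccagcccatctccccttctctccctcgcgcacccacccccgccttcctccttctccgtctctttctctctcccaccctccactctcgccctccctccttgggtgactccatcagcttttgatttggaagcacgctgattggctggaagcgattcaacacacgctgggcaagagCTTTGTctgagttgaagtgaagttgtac
PCDH7, chr4:30720119-30720368: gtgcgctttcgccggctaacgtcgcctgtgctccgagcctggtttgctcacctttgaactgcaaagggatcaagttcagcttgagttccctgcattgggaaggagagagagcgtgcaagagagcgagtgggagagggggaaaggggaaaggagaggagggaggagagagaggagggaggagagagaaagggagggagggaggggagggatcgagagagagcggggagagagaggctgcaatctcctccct

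The PCDH18 stretch held 1 such match, which is CTTTGT on the strand shown, and the PCDH1 and PCDH7 stretches held 0. Over all 35116 RefSeq windows of this length, 9.29% held ACAATG and 13.7% held ACAAAG on either strand, and over the 92 windows of 72 members the shares were 10.9% and 18.5%. Their GC content was 59.2% for PCDH1, 58.4% for PCDH18 and 59.6% for PCDH7, with 6, 8 and 10 CpG dinucleotides. SOX9 binding was not measured in these samples, and a match is a description of letters only.

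**Figure D3:**
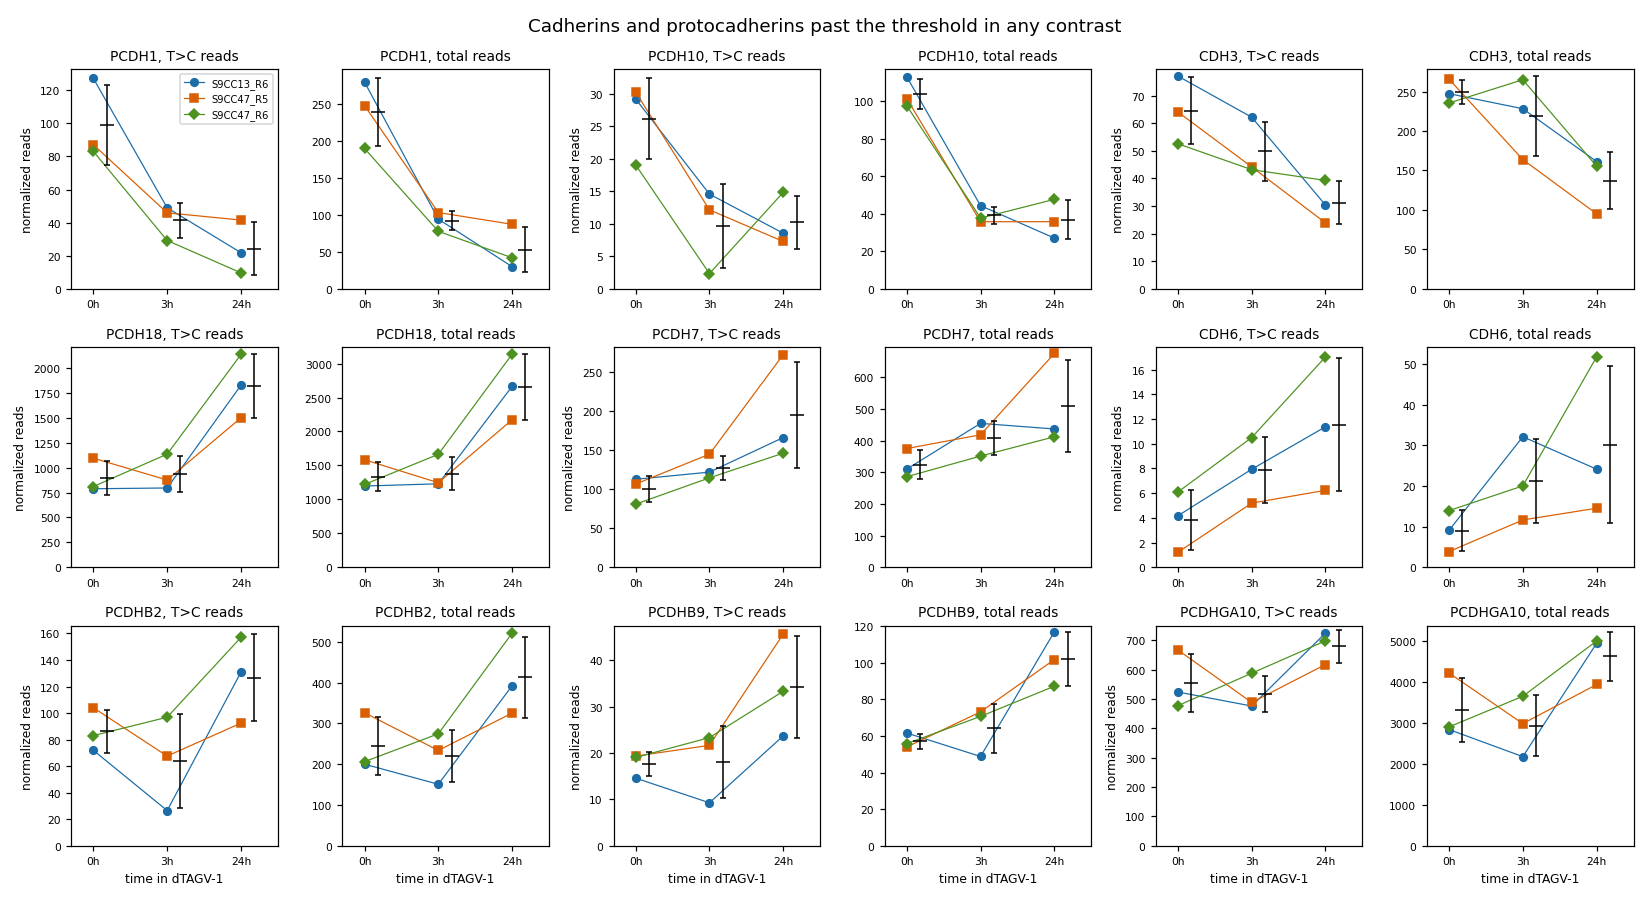
Normalized reads (T>C and total, linear axes from 0) against time in dTAGV-1 for the 9 members past the threshold in any comparison, 1 line per culture, with mean ± SD (n = 3) beside the points. PCDH1 and PCDH10 lie below their 0h values at both later times, PCDH18 lies level at 3h and above 0h at 24h, and the PCDHB2 and PCDHGA10 total reads at 24h overlap those at 0h with S9CC47_R5 no higher at 24h than at 0h.

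The other delta protocadherins did not pass in newly made RNA. PCDH20, which stands outside the delta groups, had 20.8, 36.3 and 22.1 T>C reads at 0h against 46.5, 43.6 and 61.5 at 24h, without overlap, and a log2 fold change of 0.97 ± 0.41 (adjusted p = 0.21). It passed in T>C reads with edgeR alone (0.98, adjusted p = 0.0829), and in total reads, where the fitted change was 0.82 ± 0.34 (adjusted p = 0.11), it passed with edgeR, without the surrogate variable and with culture as a replicate block (0.82 to 0.88, adjusted p = 0.0788 to 0.0956). PCDH9 had 378, 415 and 366 at 0h and 439.9, 518 and 553 at 24h, with a fold change of 0.29 ± 0.14 (adjusted p = 0.307). For PCDH19, whose loss causes an epilepsy, the change at 24h was -0.086 ± 0.37 (adjusted p = 0.961), and for PCDH17 it was -0.29 ± 0.56 (adjusted p = 0.906). The antisense gene PCDH9-AS1 overlaps the last exon of PCDH9, and whether counting used strand was not given in the sources used here. Another gene annotated as protein-coding overlaps the last exon of PCDH20 on the same strand, where use of strand would not separate the reads.

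Among classical cadherins, CDH3 (P-cadherin, chr16:68636189-68727468, plus strand), which is typical of basal epithelium, fell in total reads at 24h. Its normalized total reads were 247, 266 and 236 at 0h, 228, 164 and 265 at 3h and 161, 95.02 and 155 at 24h, and every 24h sample lay below all earlier samples. The fitted log2 change was -0.97 ± 0.20 against 0h (adjusted p = 7.51e-05) and -0.79 ± 0.22 against 3h (adjusted p = 0.0116). T>C reads were 77.1, 64.1 and 52.6 at 0h, 62.2, 44.2 and 43.2 at 3h and 30.3, 23.9 and 39.3 at 24h, also without overlap between 0h and 24h, and their fold change of -0.99 ± 0.36 did not pass (adjusted p = 0.115). It passed with the replicate block, with edgeR and without the surrogate variable (-1.05 to -0.97, adjusted p = 0.05 to 0.0607). Without S9CC47_R5, the culture with the lowest 24h level, the total-read change was -0.67 against 0h (adjusted p = 0.183) and -0.70 against 3h (adjusted p = 0.423), and without S9CC13_R6 it was -1.68 against 0h (adjusted p = 0.0657) and -1.32 against 3h (adjusted p = 0.285). The 6 epithelial markers summed to 2.90 to 4.13 CPM at 0h, 2.70 to 4.45 CPM at 3h and 1.42 to 2.38 CPM at 24h. These sums were mostly KRT18 (mean 1.84 CPM at 0h and 0.877 CPM at 24h) and KRT8 (1.15 and 0.803 CPM). EPCAM, CLDN4, CLDN7 and ESRP1 were at or near 0, and the part of these markers in the CDH3 result was not tested.

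CDH2 (N-cadherin, chr18:27932879-28177946, minus strand), the main cadherin of migratory mesenchyme, did not pass at either time. Its T>C reads were 619.9, 412 and 555 at 0h, 937, 387 and 545 at 3h and 476, 249 and 383 at 24h. The groups overlapped, while S9CC13_R6 was highest and S9CC47_R5 lowest at every time, and within each culture the 24h value was below the 0h value, with log2 ratios of -0.38, -0.73 and -0.53. The fitted change at 24h was -0.38 ± 0.15 (adjusted p = 0.154), and CDH2 passed in 4 of 13 alternatives: with culture as a replicate block, with edgeR, without the surrogate variable and with only the 6 samples compared. Over these settings its log2 fold change was -0.55 to -0.37 with adjusted p-values of 0.0152 to 0.0771, and it did not pass with the replicate block beside the surrogate variable. From 3h to 24h its change was -0.46 ± 0.16 (adjusted p = 0.189) and passed in 3 of 13 alternatives, the replicate block among them. Total reads were 2066, 1440.5 and 2117 at 0h, 2754, 1400.3 and 2047 at 3h and 1733, 1127 and 1819 at 24h, again with S9CC47_R5 lowest at every time, and their change at 24h was -0.22 ± 0.11 (adjusted p = 0.185). From 3h to 24h total reads changed by -0.31 ± 0.11 (adjusted p = 0.12), which passed in 3 of 11 alternatives, again with the replicate block among them. A lncRNA overlaps its last exon on the opposite strand.

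CDH11 (OB-cadherin, chr16:64943753-65126112, minus strand), a type II cadherin of mesenchyme and neural crest, had normalized T>C counts of 624, 582 and 509 at 0h, 525, 397 and 456 at 3h and 615, 534 and 585 at 24h. The 3h values lay lower within each culture, and the fitted change of -0.34 ± 0.13 did not pass (adjusted p = 0.279). With size factors taken from total reads it was -0.43 and passed (adjusted p = 0.0431). At 24h the change was 0.057 ± 0.13 (adjusted p = 0.928). Total reads were 1600.0, 1479 and 1354 at 0h, 1516, 1142 and 1336 at 3h and 1662, 1437 and 1553 at 24h, with overlap, and changed by -0.18 ± 0.10 at 3h and 0.10 ± 0.11 at 24h (adjusted p = 0.744 and 0.614).

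CDH6 (K-cadherin, chr5:31193686-31329146, plus strand), a type II cadherin known from premigratory neural crest and kidney, was near the detection limit. Its normalized total reads were 9.09, 3.85 and 13.9 at 0h, 32.1, 11.6 and 20.03 at 3h and 24.1, 14.5 and 51.8 at 24h, and it rose at 24h by a log2 fold change of 1.71 ± 0.61 (adjusted p = 0.0468). Total reads reached 1 CPM only in S9CC13_R6 at 3h (1.47) and 24h (1.14) and in S9CC47_R6 at 24h (2.45). CDH6 thus entered this test through depleted samples alone, and its rise is a description. The T>C reads were 4.17, 1.21 and 6.09 at 0h, 7.94, 5.20 and 10.5 at 3h and 11.4, 6.23 and 17.04 at 24h, with a change at 24h of 1.46 ± 0.88 (adjusted p = 0.501). S9CC47_R5 was lowest and S9CC47_R6 highest in T>C reads at all 3 times. The total-read change was 2.24 without S9CC13_R6 (adjusted p = 1), 1.65 without S9CC47_R5 (adjusted p = 0.323), 1.43 with only the 6 samples compared (adjusted p = 0.269) and 2.22 with the culture as a replicate block beside the surrogate variable (adjusted p = 0.113). The other classical cadherins tested in newly made RNA, CDH7, CDH10, CDH15, CDH20 and CDH24, had log2 fold changes at 24h from -0.23 in CDH7 to 2.05 in CDH20, with standard errors from 0.75 to 1.58, and none passed.

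No FAT, DCHS or CELSR gene passed at either time. DCHS1 (chr11:6621330-6655809, minus strand), the ligand of FAT4 in planar polarity, had normalized T>C counts of 322, 362 and 499.7 at 0h, 515, 473 and 380.4 at 3h and 397, 433 and 405 at 24h. Its change was 0.16 ± 0.16 at 3h and 0.12 ± 0.17 at 24h (adjusted p = 0.988 and 0.852). Total reads of DCHS1 were 2370.3, 2507 and 3398 at 0h, 3444, 3057 and 2829 at 3h and 2754, 2762 and 2589 at 24h, and both times overlapped 0h, with changes of 0.14 ± 0.11 and 0.025 ± 0.12 (adjusted p = 0.914 and 0.927). FAT1 changed by 0.036 ± 0.20 at 24h (adjusted p = 0.97). FAT4, the receptor for DCHS1, had few T>C reads, 26.05, 22.98 and 31.99 at 0h, 2.65, 5.20 and 18.7 at 3h and 11.4, 14.5 and 17.04 at 24h. All later samples lay below all 0h samples, and the changes of -1.68 ± 0.59 at 3h and -1.39 ± 0.60 at 24h did not pass (adjusted p = 0.203 and 0.23). In total reads FAT4 changed by -0.38 ± 0.33 at 24h (adjusted p = 0.511), with overlap. The CELSR genes changed at 24h by -0.86 ± 1.18 for CELSR1, -0.55 ± 0.56 for CELSR2 and -0.44 ± 0.41 for CELSR3, and none passed. In total reads CELSR2 changed by -0.46 ± 0.22 at 24h (adjusted p = 0.171), and it passed with the replicate block and with no filter on low counts (-0.70 to -0.57, adjusted p = 0.028 to 0.0731). A p that misses the threshold does not show that these levels stayed the same. DCHS1-AS1 overlaps the last exon of DCHS1 on the opposite strand.

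Clustered protocadherins made up 50 of the 94 genes. On chromosome 5 (hg38, GENCODE 44), the 14 alpha genes span chr5:140786136-141012347, the 16 beta genes chr5:141051374-141249365 and the 20 gamma genes chr5:141330514-141512977. Each alpha or gamma gene has its own first exon and promoter, spliced to constant exons that its cluster shares, whereas each beta gene is 1 exon with its own end. In the canonical transcripts all 14 alpha genes share the last exon chr5:141009627-141012347 and all 20 gamma genes share chr5:141510947-141512975. Reads from the 3′ end therefore cannot tell alpha isoforms from each other, nor gamma isoforms. In the tables, PCDHA10 held 88.0% of the reads of the alpha cluster and PCDHA12 held 9.71%, and PCDHGA10 held 87.9% of the gamma reads and PCDHGB6 held 8.45%. Values under these names may thus stand for the clusters, and the set of 3′ regions the counts were made on was not given in the sources used here. The beta reads were spread over more genes, with 41.7% in PCDHB2 and 23.9% in PCDHB16, although near-identical copies can share reads.

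The promoters of the clustered genes are chosen singly in a cell, and CTCF, cohesin and SMCHD1 are known regulators of that choice. The RefSeq windows from 250 bases before to 50 after the start were searched for the run of 9 letters that the most windows of clustered genes share. This was GGTGGCGCT, which 13 of 14 beta windows (92.9%) held on the gene strand, the exception being PCDHB1. None of the 12 alpha or 22 gamma windows held these exact letters on either strand, nor did the 44 windows of the other members, and over all 35116 windows the share was 0.501%. The 6 beta genes with values are shown to place these letters, in capitals within 20 bases on each side (GRCh38.p14, plus strand).
PCDHB2, chr5:141094535-141094583: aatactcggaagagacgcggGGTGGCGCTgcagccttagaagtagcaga
PCDHB9, chr5:141187065-141187113: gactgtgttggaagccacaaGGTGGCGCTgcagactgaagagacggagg
PCDHB10, chr5:141192290-141192338: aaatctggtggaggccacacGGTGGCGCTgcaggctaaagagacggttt
PCDHB14, chr5:141223254-141223302: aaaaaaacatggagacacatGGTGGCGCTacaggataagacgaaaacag
PCDHB15, chr5:141245305-141245353: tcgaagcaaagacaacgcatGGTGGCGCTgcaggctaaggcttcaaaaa
PCDHB16, chr5:141182301-141182349: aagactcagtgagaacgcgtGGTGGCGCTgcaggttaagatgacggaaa

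In these genes the capitals began 43 bases before the start in PCDHB10 and 76 before it in PCDHB9, with the other 4 between. Binding of CTCF was not measured, and the match says nothing of use of the promoter.

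Sums over a cluster are given here as a description. Beta and alpha sums were higher at 24h than at 0h within every culture, with the alpha groups overlapping. Gamma sums were higher in S9CC13_R6 and S9CC47_R6 and lower in S9CC47_R5. Total reads of the beta cluster were 25.1, 33.4 and 23.8 CPM at 0h, 24.5, 26.8 and 32.2 at 3h and 38.4, 39.4 and 50.9 at 24h, and all 24h sums lay above all earlier ones. The gamma cluster had 158, 214 and 152 CPM at 0h, 137, 152 and 201 at 3h and 260.4, 203 and 254 at 24h. There S9CC47_R5 was highest at 0h and lowest at 24h, so that the groups overlapped. The alpha cluster had 88.4, 67.3 and 68.5 CPM at 0h, 93.6, 65.1 and 73.1 at 3h and 91.2, 77.6 and 76.8 at 24h, with S9CC13_R6 above both other cultures at each time. In T>C reads the beta sums were 44.97, 56.6 and 48.6 CPM at 0h and 63.5, 68.2 and 85.8 at 24h, and the gamma sums 148, 172 and 133 and 204, 168 and 184.

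**Figure D4:**
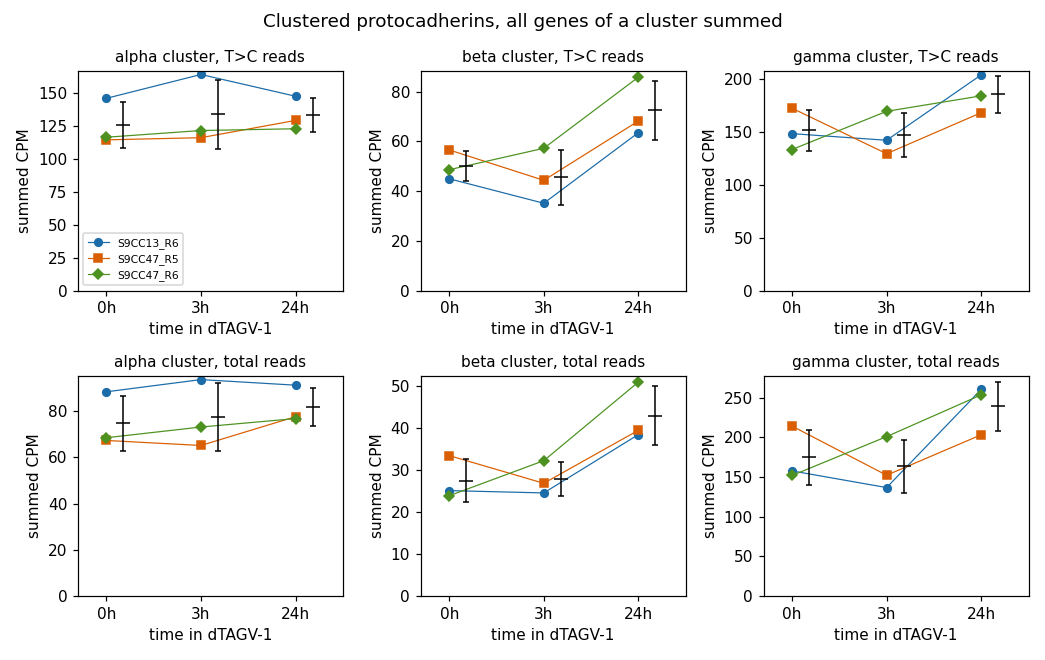
Summed CPM of all genes of the alpha, beta and gamma protocadherin clusters against time in dTAGV-1, T>C reads in the upper row and total reads in the lower, 1 line per culture, with mean ± SD (n = 3) beside the points and axes from 0. The beta sums at 24h lie above all earlier sums in total reads (38.4 to 50.9 CPM against 23.8 to 33.4 CPM), and the alpha sums overlap between times with S9CC13_R6 highest.

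Single clustered genes passed in total reads and none in T>C reads. PCDHB2 (chr5:141094606-141098703, plus strand) had 199.9, 326 and 206 normalized total reads at 0h, 151, 234 and 274 at 3h and 392, 325 and 521 at 24h. S9CC47_R5 had nearly the same level at 0h and 24h, and the other two cultures were higher at 24h. The fitted log2 change was 0.53 ± 0.17 against 0h (adjusted p = 0.0227) and 0.56 ± 0.18 against 3h (adjusted p = 0.045), while in T>C reads, at 71.9, 104 and 83.03 in the 0h group, 26.5, 67.6 and 96.9 in the 3h group and 131, 92.4 and 157 in the 24h group, it was 0.17 ± 0.27 against 0h (adjusted p = 0.874) and 0.52 ± 0.29 against 3h (adjusted p = 0.667). With the replicate block alone, PCDHB2 passed in T>C reads against 3h (1.07, adjusted p = 0.0362). Without S9CC13_R6 the fitted total-read change was -0.17 against 0h and -0.012 against 3h (adjusted p = 1 for both). The log2 ratios of 24h to 3h within S9CC47_R5 and S9CC47_R6 were 0.48 and 0.92. Without S9CC47_R5 the fitted change was 0.72 against 3h (adjusted p = 0.212). With the culture as a replicate block beside the surrogate variable it was 0.28 against 0h (adjusted p = 0.569) and 0.28 against 3h (adjusted p = 0.861). PCDHB1-AS1 overlaps its exon on the opposite strand.

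PCDHB9 (chr5:141187127-141191541, plus strand) had 61.6, 53.9 and 55.8 total reads at 0h, 48.8, 73.2 and 70.7 at 3h and 117, 102 and 87.2 at 24h, the 24h values above all earlier ones, a log2 fold change of 0.81 ± 0.29 (adjusted p = 0.0505). It was 0.93 without S9CC13_R6 (adjusted p = 1), 0.73 without S9CC47_R5 (adjusted p = 0.504) and 0.70 with the replicate block beside the surrogate variable (adjusted p = 0.379). T>C reads were 14.6, 19.3 and 19.04 at 0h, 9.26, 21.7 and 23.3 at 3h and 23.7, 45.7 and 33.3 at 24h, and their change at 24h was 0.67 ± 0.49 (adjusted p = 0.63). lncRNAs overlap this exon on both strands.

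PCDHGA10 (chr5:141412987-141512975, plus strand), which carried most gamma reads, had 2841, 4223 and 2905 total reads at 0h, 2177, 2984 and 3653 at 3h and 4947, 3942 and 5005 at 24h. Here too S9CC47_R5 was highest at 0h and lowest at 24h. PCDHGA10 changed by 0.33 ± 0.12 on the log2 scale against 0h (adjusted p = 0.0537) and 0.43 ± 0.13 against 3h (adjusted p = 0.0263). The change against 0h did not pass without the surrogate variable (0.49, adjusted p = 0.101) or with only the 6 samples compared (0.43, adjusted p = 0.421). The fitted changes against 0h and 3h were -0.28 and -0.10 without S9CC13_R6. They were 0.10 and 0.16 with the replicate block beside the surrogate variable (adjusted p = 0.781 and 0.869). Within S9CC47_R5 and S9CC47_R6 the log2 ratios of 24h to 0h were -0.099 and 0.79, and those of 24h to 3h were 0.40 and 0.45. In T>C reads PCDHGA10 had 524, 668 and 478 at 0h, 476, 489 and 588 at 3h and 725, 618 and 699 at 24h, with a change at 24h of 0.22 ± 0.14 (adjusted p = 0.53). PCDHGB6, with a change of -0.14 ± 0.18 in total reads from 3h to 24h (adjusted p = 0.802), passed there with the replicate block (-0.45, adjusted p = 0.0843).

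PCDHA10 (chr5:140855883-141012347, plus strand), which carried most alpha reads, had 530.3, 423 and 429.6 T>C reads in the 0h group, 615, 445 and 411 in the 3h group and 505, 461 and 448 in the 24h group, with a change at 24h of 0.17 ± 0.13 (adjusted p = 0.634). Its total reads were 1644, 1308 and 1385 at 0h, 1779.6, 1327 and 1291 at 3h and 1631, 1483 and 1445 at 24h, and changed by 0.18 ± 0.10 at 24h (adjusted p = 0.225). S9CC13_R6 was highest at each time in both readouts, and the groups overlapped.

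Genes that work with cadherins were followed beside the members. A list of 65 was taken, holding catenins, desmosomal genes, calsyntenins, junction scaffolds, cadherin-cleaving proteases, planar polarity genes and regulators of the clustered locus, of which 51 were tested in each readout. At 3h 1 of 51 changed, NECTIN2, an adhesion receptor of the same junctions, which rose by 0.78 ± 0.22 (adjusted p = 0.0307), beside 1.79% of all genes called in either direction at that time. At 24h 1 of 51 rose, LIX1, which was listed with the FAT and DCHS genes, by 0.87 ± 0.28 (adjusted p = 0.0458), beside 2.38% of all genes higher and 4.98% changed in either direction. LIX1 did not pass with any 1 culture left out. In total reads 1 of 51 changed at 3h, LIMA1, which fell, beside 1.89% of all genes changed in either direction. At 24h 10 of 51 changed, which is 19.6% beside 15.0% of all genes. Of these 10, LIX1 (0.81 ± 0.15), NECTIN1 (0.52 ± 0.15), the protease ADAM10 (0.39 ± 0.11) and alpha-catenin CTNNA1 (0.25 ± 0.10) rose, and CLSTN1, CLSTN2, PDLIM5, PKP4, SMC1A and VEZT fell.

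A few genes differed between cultures at every time. With 0.5 CPM added, the T>C level of PCDHGA5 in S9CC13_R6 was over 2-fold that in S9CC47_R6 at all 3 times (log2 ratios of 1.14, 1.17 and 1.92 at 0h, 3h and 24h), 1 of 39 members beside 0.540% of all genes. CDH20 was over 2-fold higher in S9CC13_R6 than in S9CC47_R5 (1.33, 1.57 and 1.36), 1 of 39 beside 0.557%. Between S9CC47_R5 and S9CC47_R6 it was 0 of 39 beside 0.357%. PCDHGA5 reached 1 CPM of T>C reads only in S9CC13_R6, so it passed the filter through the culture in which it was higher. CDH20 reached 1 CPM in S9CC13_R6 at 3h and 24h and in S9CC47_R6 at 24h, and never in S9CC47_R5. Both counts therefore depend on the filter. Reads listed under PCDHGA5 cannot be told from those of the other gamma genes, both genes have few reads, the pairs share cultures, and with 1 culture for each clone and batch no test was made.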

How the data were processed

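The authors deposited raw counts per gene symbol of all reads and of T>C reads in 9 samples. According to their methods, reads were trimmed with skewer and mapped and counted with slamdunk. The labels name hg38, and the counted 3′ regions and use of strand were not given in the sources used here. Of the columns of samples, 0 were left out. PCR reads without molecular identifiers are not independent molecules.

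Genes of protein-coding type (GENCODE 44) with at least 1 CPM in 3 or more samples were fitted in DESeq2 1.42.0 (R 4.3.3) with terms for time, for differentiation batch and for 1 surrogate variable (sva 3.50.0), over all 9 samples. Log2 fold changes, standard errors and Benjamini-Hochberg adjusted p-values come from its Wald test over all genes, with a call at adjusted p under 0.1. Total reads at 24h against 3h come from the same fit and were added to the planned comparisons. Normalized reads are counts over size factors. edgeR 4.0.16 was an alternative, as were other filters, covariates and each culture left out. The script was tested on simulated data.

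Groups come from the sample titles. Clone and batch in the titles pair samples across times, and correlations of deviations within a culture were 0.017 to 0.29 in T>C reads and -0.057 to 0.61 in total reads. The p-values measure the spread left between samples after the terms for time, batch and the surrogate variable. The main fit had no term for culture, so this pairing was used only with the replicate block. Full values were given for members called in any comparison, for CDH2, CDH6 and CDH11, and for the 5 with the highest total level at 0h. The members and lists were chosen with earlier results of these data known.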

Additional observations from a re-analysis of the deposited data

Results flagged for a closer look

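For 4 genes the level at 24h differed from that at 3h by the 24h against 3h contrast of the same DESeq2 fit, given as log2 fold changes with SE. PCDH18 differed by 0.72 ± 0.13 in T>C reads (adjusted p = 1.5e-05) and by 0.73 ± 0.12 in total reads (adjusted p = 1.55e-07), higher at 24h in 3 of 3 cultures. In total reads CDH3 differed by -0.79 ± 0.22 (adjusted p = 0.0116), lower in 3 of 3 cultures, PCDHB2 by 0.56 ± 0.18 (adjusted p = 0.045), higher in 3 of 3, and PCDHGA10 by 0.43 ± 0.13 (adjusted p = 0.0263), higher in 3 of 3. The comparison has no 0h samples in it, and without S9CC13_R6 none of the 4 passed. The fitted values were then 0.53 and 0.33 for PCDH18, -1.32 for CDH3, -0.012 for PCDHB2 and -0.10 for PCDHGA10. The ratios within the cultures kept had the directions given above.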

How the results depend on the processing

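Counts of members called in T>C reads depended on the settings. At 3h the count of 1 became 2 with size factors from total reads and 0 with any 1 culture left out. Calls over all 12037 genes went from 216 to 274 and to 55 to 90 in these settings. At 24h the count of 3 became 6 with edgeR, 5 without the surrogate variable and 5 with the culture as a replicate block, and 0 to 2 with a culture left out. Over all 12037 genes 599 calls became 968, 616 and 722, and 67 to 259 with a culture left out. From 3h to 24h the count of 1 became 3 with edgeR, 2 without the surrogate variable, 3 with the replicate block and 3 with size factors from total reads, and 0 to 1 with a culture left out. Over all 12037 genes 137 calls became 267, 373, 530 and 268, and 24 to 83 with a culture left out. In total reads, leaving out a culture gave 0 to 1 at 3h and 1 to 6 at 24h in place of 2 and 9, and the replicate block beside the surrogate variable gave 5 at 24h. Over all 11710 genes, leaving out a culture gave 66 to 154 at 3h and 163 to 788 at 24h in place of 221 and 1751. That replicate block gave 831 at 24h. Total reads without S9CC47_R6 gave no result, since that fit stopped with an error. The list of partner genes, 1 called in T>C reads at 24h, gave 5 with edgeR, 2 with the replicate block, 3 with a mean of at least 20 counts, 2 with only the 6 samples compared and 2 with size factors from total reads, and 0 to 1 with a culture left out, the 1 being ACTN1 and not LIX1. Calls over all genes were 968, 722, 534 (of 10154), 656 and 599 in the first 5 of these settings. Culture differences of members, counted for each gene and pair of cultures, went from 2 at 2-fold to 14 at 1.5-fold. Genes were counted again where they passed in several pairs. At 1.5-fold the pairs held 3 of 39 members beside 1.60% of all genes (S9CC13_R6 and S9CC47_R6), 4 beside 1.56% (S9CC47_R5 and S9CC47_R6) and 7 beside 1.81% (S9CC13_R6 and S9CC47_R5). In total reads the count at 2-fold was 0, beside 0.111% to 0.154% of all genes, and PCDHGA5 and CDH20 were not tested there. Without S9CC13_R6 the fitted total-read changes were -0.17 against 0h and -0.012 against 3h for PCDHB2, and -0.28 and -0.10 for PCDHGA10. The log2 ratios within S9CC47_R5 and S9CC47_R6, the cultures kept, did not all fall. For PCDHB2 they were -0.0035 and 1.34 against 0h and 0.48 and 0.92 against 3h. For PCDHGA10 they were -0.099 and 0.79 against 0h and 0.40 and 0.45 against 3h. Without S9CC47_R5 the fitted changes were 0.74 and 0.72 for PCDHB2 and 0.52 and 0.53 for PCDHGA10. The cause of these shifts was not tested. A culture left out leaves 6 samples for a fit with nearly as many terms, and so a much weaker test. Members with few reads had standard errors over 1 on the log2 scale, so that changes of 2-fold were not detectable in them.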
